A study of Arabidopsis thaliana with 22 samples.

Results

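The plastid gene rbcL (ArthCp030) and the stretch before it were examined in wild-type Arabidopsis thaliana leaves, comparing nucleoids with naked plastid DNA. The gene was taken as the 1440 bases at positions 54958 to 56397 of Pltd, the plastid genome in build TAIR10, on the plus strand, and the upstream stretch as the 300 bases from 54658 to 54957, in the spacer that separates rbcL from atpB. It was 1 of 112 plastid genes, and gene and upstream stretch together made 35 of the 3089 windows of 50 bp along the genome, 29 in the gene and 6 before it. The members were chosen by position, not by measured values. The assay was ptATAC-seq, in which the transposase Tn5 inserts adapters where plastid DNA is accessible, and the files give a count at each position of the plastid genome.

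Both fractions came from ecotype Col0, from rosette leaves of plants aged 14 days that had grown on soil at 22 °C under 16 h of light and 8 h of darkness. Chloroplasts enriched from 5 g of leaves were fixed with 4% formaldehyde for 4 h, and a Nextera kit was used for the libraries. The same text describes both fractions, and the step that freed the naked DNA of protein is not given in the sources used here. The labels list 11 Nucleoid and 11 Naked libraries. Nucleoid replicates 9 and 10 held equal counts at all 154477 positions, differed by less than the sampling noise and were counted as 1 sample, which left 10 Nucleoid and 11 Naked libraries. The labels do not say whether replicates came from separate plants, so p-values measure the spread between these libraries, which may be technical. The leaf and chloroplast labels could not be checked against marker genes, because the table holds plastid positions only.

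rbcL encodes the large subunit of Rubisco, the enzyme that fixes carbon dioxide in the Calvin cycle, while the small subunit is encoded in the nucleus and imported. In leaves rbcL is among the most strongly transcribed plastid genes, read mainly by the bacterial-type plastid-encoded RNA polymerase. It shares its spacer with atpB, which encodes a subunit of the chloroplast ATP synthase and is transcribed in the opposite direction. In the chloroplast, DNA, proteins and RNA are packed together as the nucleoid, and naked DNA gives the pattern that Tn5 makes on the sequence itself.

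Nucleoid libraries held from 202725 to 1813905 counts, and Naked libraries from 105763 to 1195649. The rbcL gene itself held 3140 to 22820 counts in Nucleoid libraries (median 14252) and 1414 to 14086 in Naked libraries (median 9102). The upstream stretch held 238 to 3166 counts and 130 to 1868 counts. Deep libraries, those above 600000 counts, numbered 8 in Nucleoid and 5 in Naked. Signal is the mean count per position in percent of the same library's genome mean, so 100 is the average of the plastid genome. Naked replicates 9, 10 and 11, which are not among the deep libraries, stood apart, and values without them are given beside the results below.

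Across the rbcL gene the signal lay above the genome mean in every library of both fractions. It was 143 ± 12.6 in Nucleoid libraries (SD, n = 10; lowest 124, median 141, highest 166), against 164 ± 32.1 in Naked libraries (SD, n = 11; lowest 126, median 156, highest 215). The fractions overlapped: 9 of 10 Nucleoid libraries fell short of the Naked median, but only 1 lay below the lowest Naked library. In the fit over all genes the log2 fold change of Nucleoid over Naked, computed on log2(signal + 1), was -0.18 (SE 0.09, 95% interval -0.38 to 0.01). It did not pass the threshold of 0.05 (limma, adjusted p = 0.112), whereas 33.9% of the 112 genes did. The 3 highest Naked values, 214, 196 and 215, were those of replicates 9, 10 and 11. Naked replicates 1 to 8 had 126 to 176, with a median of 149 (n = 8), and against these alone the fold change was -0.05 (limma, adjusted p = 0.671). Among deep libraries it was -0.02 (95% interval -0.16 to 0.11; limma, adjusted p = 0.855). Other scalings gave larger decreases that did not pass either. With each library scaled to its window median the fold change was -0.35 (95% interval -0.67 to -0.02; limma, adjusted p = 0.101). It was -0.25 with scaling to the large single copy region and -0.26 with scaling to single-copy protein-coding genes (limma, adjusted p = 0.110 and 0.111).

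**Figure D1:**
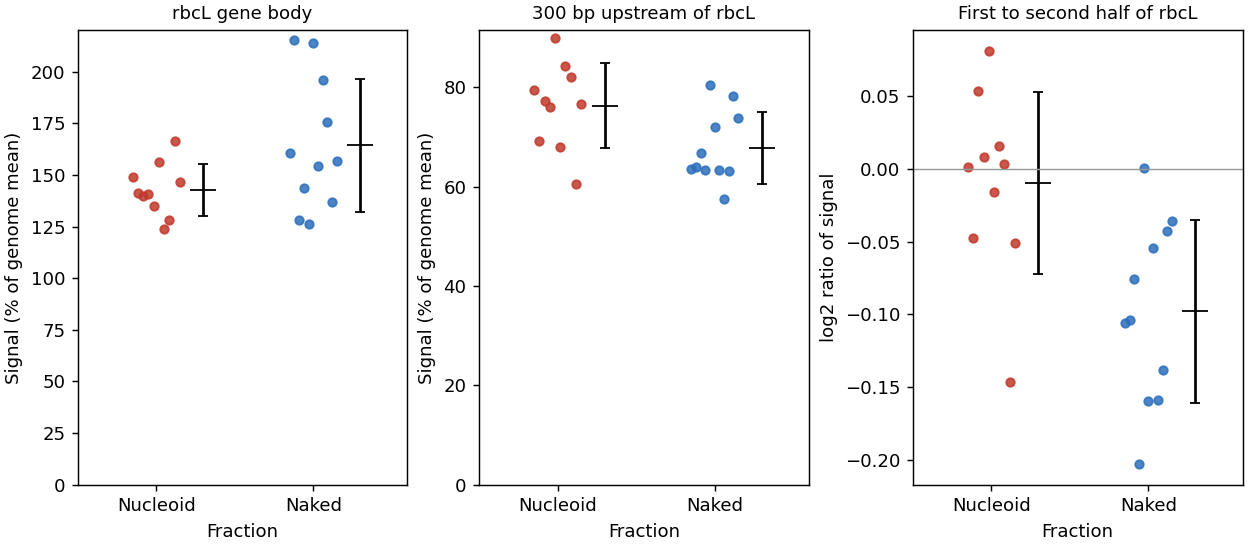
Signal across the rbcL gene (left), signal across the 300 bases before it (middle), both in percent of the genome mean, and log2 ratio of the signal in the first 720 bases of the gene to that in the last 720 (right), for Nucleoid and Naked libraries. Points are libraries and bars are mean ± SD. Across the gene the fractions overlap and 3 Naked libraries sit highest, at 196 to 215. In the right panel 9 of 10 Nucleoid points exceed the Naked median.

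The 300 bases upstream of rbcL had less signal than the gene in both fractions. The upstream signal was 76.3 ± 8.60 in Nucleoid libraries (SD, n = 10; lowest 60.5, median 77.0, highest 89.9), against 67.8 ± 7.22 in Naked libraries (SD, n = 11; lowest 57.6, median 63.9, highest 80.4). Here 9 of 10 Nucleoid libraries exceeded the Naked median and 3 exceeded the highest Naked library. The log2 difference was 0.17 (permutation test, two-sided, p = 0.0267), and after adjustment over the 6 measures with 1 value per library it did not pass (adjusted p = 0.0535). When the stretch was tested among all 514 stretches of 300 bp along the genome, the 95% interval was 0.02 to 0.32 (limma, adjusted p = 0.0711), against 28.4% of stretches that passed. The median stretch also had a fold change above 0, of 0.16, so the upstream stretch lay close to the typical stretch. With each library scaled to its window median in place of its mean, the upstream difference was 0.005 (permutation test, adjusted p = 0.945), and among deep libraries it was 0.13 (exact permutation test, adjusted p = 0.289). Without Naked replicates 9, 10 and 11 it was 0.14 (permutation test, adjusted p = 0.234).

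The 150 bases nearest the gene gave 99.5 ± 8.20 in Nucleoid libraries (SD, n = 10), against 87.5 ± 6.79 in Naked libraries (SD, n = 11). For this shorter stretch the log2 difference was 0.18 (permutation test, adjusted p = 0.00822), and Naked replicates 1 to 8 alone had 87.1 ± 4.65 (SD, n = 8). The median fold change along the genome was 0.19 for 50 bp windows and 0.16 for 300 bp stretches, so 0.18 was close to typical. This shorter stretch was not tested with other scalings, with depth as a covariate, among deep libraries or without Naked replicates 9, 10 and 11. The 300 bases downstream of the gene gave 69.9 ± 5.95 in Nucleoid libraries (SD, n = 10), against 61.5 ± 6.23 in Naked libraries (SD, n = 11). Signal downstream was therefore higher in nucleoids by about as much as upstream (log2 fold change 0.18, SE 0.07; limma, adjusted p = 0.0455, 9 of 10 libraries above the Naked median). Of all 300 bp stretches 15.2% were called higher, and their median fold change of 0.16 was close to the downstream value. This downstream call held in 6 of 22 alternatives. It was lost without any 1 of replicate numbers 2, 4 and 6 to 11 (adjusted p up to 0.0914), among deep libraries (0.07, adjusted p = 0.479), without Naked replicates 9, 10 and 11 (0.13, adjusted p = 0.120) and with window-median scaling (0.02, adjusted p = 0.813).

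The step in signal at the gene was measured within each library, so that the scaling of libraries bears on it only through the added 1. The log2 ratio of upstream to gene signal was -0.90 ± 0.28 in Nucleoid libraries (SD, n = 10), against -1.25 ± 0.37 in Naked libraries (SD, n = 11). This contrast was thus smaller in nucleoids by 0.35, with a permutation p of 0.0261 that did not pass after adjustment (adjusted p = 0.0535). It was 0.19 without Naked replicates 9, 10 and 11 (permutation test, adjusted p = 0.345), 0.15 among deep libraries (exact permutation test, adjusted p = 0.434) and 0.14 with depth as a covariate (permutation test, adjusted p = 0.456).

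At 50 bp the profile of rbcL was far from flat, and peaks and troughs fell at mostly the same windows in both fractions. The means of the 29 gene windows ranged from 75.4 to 190 in Nucleoid libraries and from 73.9 to 238 in Naked libraries, and the mean profiles of the fractions correlated with r = 0.875 across windows, which are not independent replicates. The 50 bases before the gene start gave 108 ± 8.98 in Nucleoid libraries (SD, n = 10), against 109 ± 18.6 in Naked libraries (SD, n = 11), and the first 50 bases of the gene gave 109 ± 13.1 and 105 ± 14.6. Signal then reached its Nucleoid maximum of 190 ± 19.1 at bases 51 to 100, counted from 1 at the gene start, where Naked libraries had 178 ± 35.4 (limma, adjusted p = 0.385). The Naked maximum of 238 ± 64.9 lay 1 window further in, at bases 101 to 150. The lowest gene window in both fractions was the last, bases 1401 to 1440, with 75.4 ± 9.34 and 73.9 ± 15.3. The lowest of the 35 windows was the most distant one upstream.

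**Figure D2:**
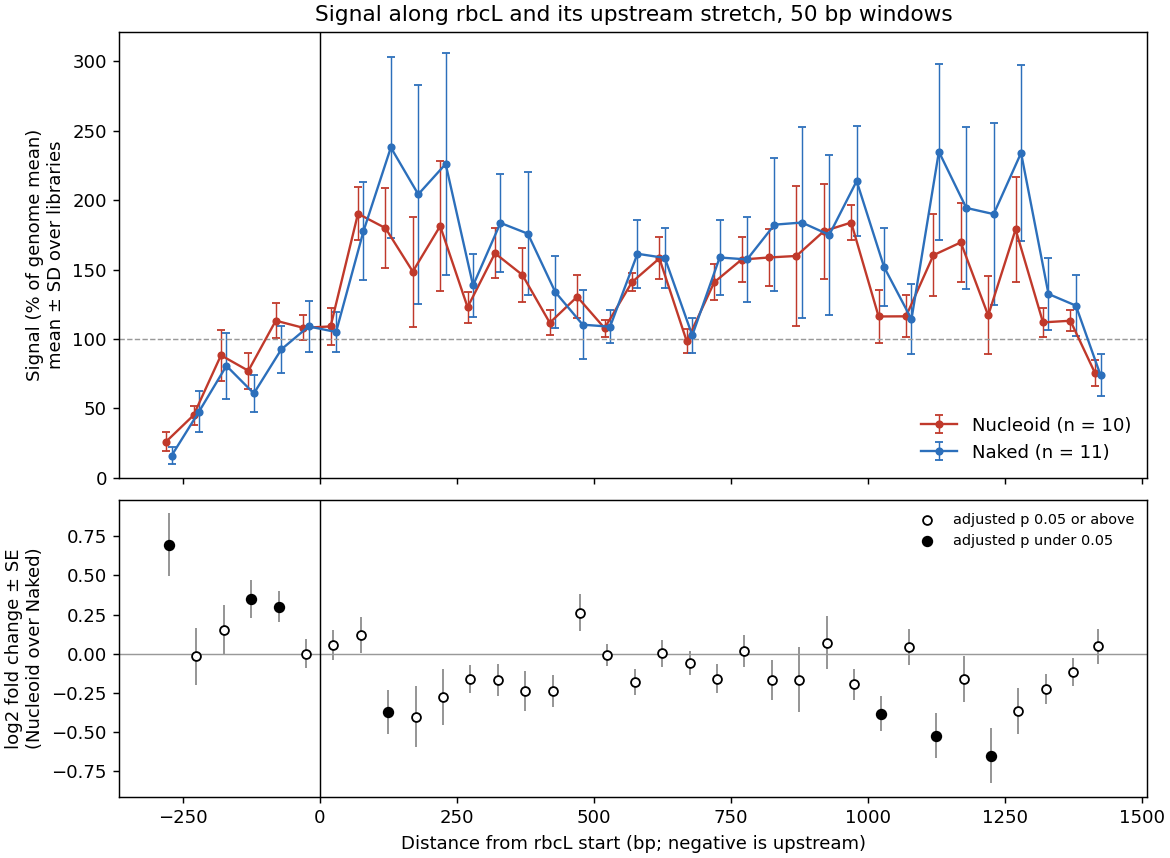
Signal in percent of the genome mean (upper panel, mean ± SD over 10 Nucleoid and 11 Naked libraries) and log2 fold change of Nucleoid over Naked with its SE (lower panel), in 50 bp windows along rbcL, by distance in bp from the gene start. The 3 called windows upstream lie above 0 and the 4 called windows in the gene lie below 0. The fractions meet at the gene start.

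Of the 35 windows, 7 passed an adjusted p under 0.05 (limma), where 29.6% of all 3089 windows did. The upstream stretch had 3 of 6 windows called, all higher in nucleoids, where 17.9% of all windows were called higher. The gene had 4 of 29 windows called, all lower in nucleoids, where 11.7% of all windows were called lower. Across the gene 21 windows had a fold change below 0 and 8 above, with a median of -0.17, and upstream 5 of 6 were above 0, with a median of 0.23. The median of all windows was 0.19, and 0.03 with window-median scaling, under which 42.1% of calls along the genome were higher, against 60.4% with mean scaling. With that scaling 24.5% of all 3089 windows were called, 319 higher and 439 lower. In the region 1 upstream window was called higher and 4 gene windows lower. Of these 5, 4 were among the 7 calls above. In the gene, bases 101 to 150 lost the call (limma, adjusted p = 0.0530) and bases 1301 to 1350 gained it (limma, adjusted p = 0.0467).

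The window farthest upstream, positions 54658 to 54707 or 300 to 251 bases before the gene, had 26.1 ± 6.93 in Nucleoid libraries (SD, n = 10; lowest 12.2, median 26.5, highest 35.3), against 16.1 ± 6.11 in Naked libraries (SD, n = 11; lowest 8.76, median 12.9, highest 24.3). Of 10 Nucleoid libraries 8 lay above the highest Naked library. The log2 fold change was 0.70 (SE 0.20; limma, adjusted p = 0.0175), on as few as 6 counts in a library. The call was lost with depth as a covariate (0.50, adjusted p = 0.103), among deep libraries (0.54, adjusted p = 0.0800), without Naked replicates 9, 10 and 11 (0.60, adjusted p = 0.0672) and, by a small margin, without replicate number 7 (adjusted p = 0.05004).

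The other 2 upstream calls were neighbours, at positions 54808 to 54857 and 54858 to 54907. The first, 150 to 101 bases before the gene, had 77.1 ± 12.9 in Nucleoid libraries (SD, n = 10; lowest 61.0, median 75.3, highest 96.3), against 60.8 ± 13.6 in Naked libraries (SD, n = 11; lowest 44.8, median 58.1, highest 87.3), a fold change of 0.35 (SE 0.12; limma, adjusted p = 0.0382). All 10 Nucleoid libraries exceeded the Naked median there, and the ranges overlapped. The second, 100 to 51 bases before the gene, had 113 ± 12.5 in Nucleoid libraries (SD, n = 10; lowest 82.3, median 114, highest 132), against 92.5 ± 16.7 in Naked libraries (SD, n = 11; lowest 69.6, median 92.6, highest 131), a fold change of 0.30 (SE 0.10; limma, adjusted p = 0.0331). It was the 1 window of the 35 that passed among deep libraries. Both calls were sensitive to single replicate numbers: the first was lost without any 1 of numbers 4 to 10 (adjusted p up to 0.0986), and the second without any 1 of numbers 2, 4, 5 and 7 to 10 (adjusted p up to 0.0804). Without Naked replicates 9, 10 and 11 neither passed, each with a fold change of 0.25 (adjusted p = 0.149 and 0.0924). With window-median scaling the fold changes were 0.19 (adjusted p = 0.159) and 0.14 (adjusted p = 0.308), and with depth as a covariate 0.17 (adjusted p = 0.241) and 0.24 (adjusted p = 0.135). The first also did not pass with voom (0.21, adjusted p = 0.1503) or among deep libraries (0.20, adjusted p = 0.292).

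Within the gene, 3 of the 4 called windows lay between bases 1001 and 1250, separated by windows that did not pass. Bases 1001 to 1050 had 116 ± 19.2 in Nucleoid libraries (SD, n = 10; lowest 86.4, median 118, highest 139), against 152 ± 28.2 in Naked libraries (SD, n = 11; lowest 121, median 136, highest 214). Here 6 of 10 Nucleoid libraries lay below the lowest Naked library, and the fold change was -0.38 (SE 0.11; limma, adjusted p = 0.0191). It was the only one of the 7 calls that also passed with depth as a covariate and without Naked replicates 9, 10 and 11. The call was lost among deep libraries (-0.21, adjusted p = 0.141) and on leaving out replicate number 9 (adjusted p = 0.0542). With window-median scaling it held (-0.54; limma, adjusted p = 0.00882).

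Bases 1101 to 1150 had 160 ± 29.7 in Nucleoid libraries (SD, n = 10; lowest 123, median 160, highest 226), against 235 ± 63.5 in Naked libraries (SD, n = 11; lowest 157, median 214, highest 339). Bases 1201 to 1250 had 117 ± 28.1 in Nucleoid libraries (SD, n = 10; lowest 86.7, median 114, highest 189), against 190 ± 65.5 in Naked libraries (SD, n = 11; lowest 103, median 161, highest 309). Most Nucleoid libraries, 9 of 10 in each window, lay below the Naked median. These were the largest decreases along the gene, with fold changes of -0.52 (SE 0.14; limma, adjusted p = 0.0145) and -0.65 (SE 0.18; limma, adjusted p = 0.0138). Both kept their calls when any 1 replicate number was left out (adjusted p up to 0.0393 and 0.0453). Without Naked replicates 9, 10 and 11 the fold changes were -0.34 (adjusted p = 0.0611) and -0.42 (adjusted p = 0.0580), and among deep libraries -0.27 (adjusted p = 0.125) and -0.31 (adjusted p = 0.0997). They were -0.34 and -0.40 with depth as a covariate (limma, adjusted p = 0.0855 and 0.0810). Window-median scaling gave -0.68 and -0.81 (limma, adjusted p = 0.0219 and 0.0199).

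The remaining call, bases 101 to 150, was the Naked maximum. It had 180 ± 29.1 in Nucleoid libraries (SD, n = 10; lowest 145, median 180, highest 245), against 238 ± 64.9 in Naked libraries (SD, n = 11; lowest 150, median 213, highest 345). The fold change was -0.37 (SE 0.14; limma, adjusted p = 0.0488). Naked replicates 9, 10 and 11 had 333, 305 and 345 there, against 204 ± 34.5 in Naked replicates 1 to 8 (SD, n = 8). Without those 3 the fold change was -0.18 (adjusted p = 0.257), and the call was also lost without any 1 of replicate numbers 2 to 10 (adjusted p up to 0.101). Depth as a covariate gave -0.18 (limma, adjusted p = 0.307) and deep libraries -0.14 (limma, adjusted p = 0.326). The 3 other scalings gave larger fold changes, -0.53, -0.43 and -0.44, that narrowly missed the threshold (limma, adjusted p = 0.0530, 0.0552 and 0.0512). The call held in 7 of 22 alternatives. The next window, bases 151 to 200, had a slightly larger fold change of -0.40 and more spread, with 149 ± 39.7 in Nucleoid and 204 ± 78.7 in Naked libraries, and did not pass (adjusted p = 0.106). The window with the largest increase in the gene, bases 451 to 500, had 130 ± 15.6 in Nucleoid and 110 ± 24.9 in Naked libraries and did not pass over all libraries (0.26, adjusted p = 0.0849). It was called higher without Naked replicates 9, 10 and 11 (0.36, adjusted p = 0.0372) and with voom (0.39, adjusted p = 0.0144), and its fold change was 0.10 with window-median scaling (adjusted p = 0.654).

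All 7 called windows kept their direction in all 22 alternatives. The number of calls was less stable: 1 of the 35 windows passed with depth as a covariate, 1 among deep libraries and 2 without Naked replicates 9, 10 and 11 (bases 451 to 500 higher, bases 1001 to 1050 lower), against 11.7%, 6.57% and 15.3% of all windows under the same alternatives. With windows of 25 bp, 5 of 12 upstream windows were called higher and 0 lower, while 18 of 58 gene windows were called lower and 3 higher, where 35.6% of all such windows were called. With windows of 100 bp, 0 of 3 upstream windows were called and 1 of 15 gene windows was called lower, where 23.8% of all were called. With windows of 200 bp, 0 of 2 upstream windows were called and 2 of 8 gene windows were called lower, where 20.1% of all were called. The shares for windows of 25, 100 and 200 bp count calls in both directions together. Shares by direction are not given for these sizes.

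**Figure D3:**
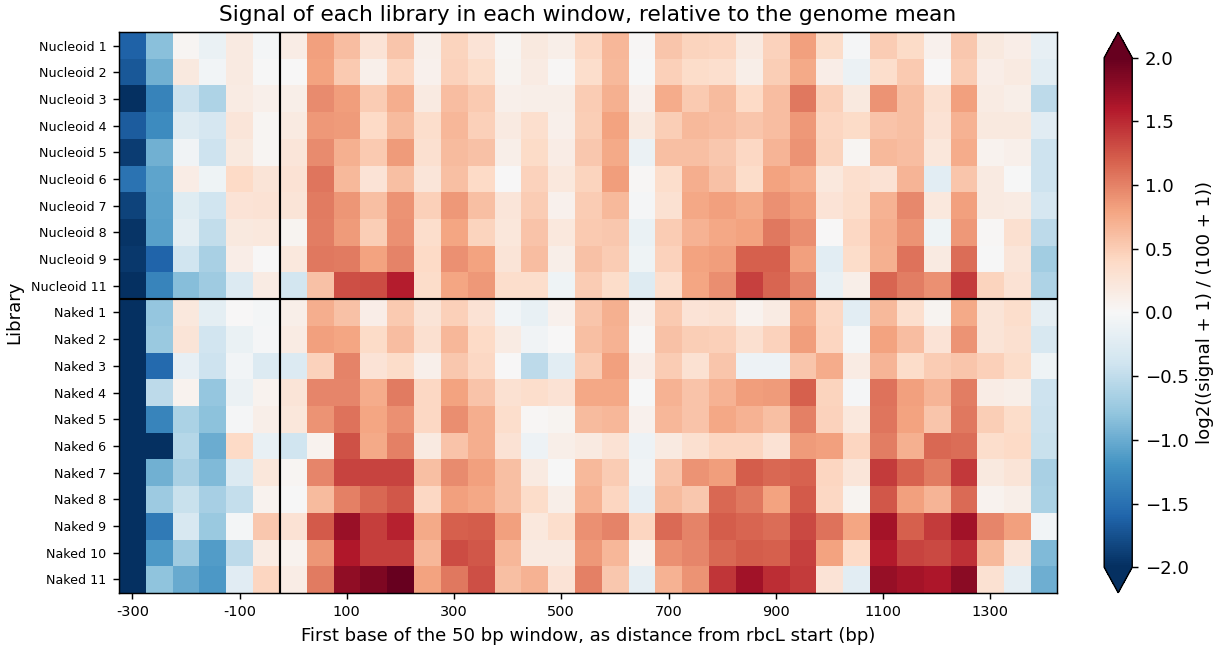
Signal of each library (rows, Nucleoid above Naked) in each 50 bp window (columns, by distance in bp from the gene start), as log2 of signal relative to the genome mean after 1 was added to both. Red is above the genome mean and blue below it. The blue columns far upstream and the red windows early in the gene appear in both fractions. Naked replicates 9, 10 and 11 are among the reddest rows, at bases 101 to 250 and 1101 to 1300.

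Over all libraries the mean signal was spread differently along the gene in the 2 fractions, but this call was lost in 8 of 20 alternatives. The first 720 bases had 142 ± 10.5 in Nucleoid libraries (SD, n = 10), against 158 ± 29.2 in Naked libraries (SD, n = 11). The last 720 bases had 143 ± 15.2 in Nucleoid libraries and 170 ± 35.2 in Naked libraries. The log2 ratio of first to last was -0.01 ± 0.06 in Nucleoid libraries (lowest -0.15, highest 0.08), against -0.10 ± 0.06 in Naked libraries (lowest -0.20, highest 0.0008). On average, Nucleoid libraries were therefore close to even along the gene and Naked libraries were tilted towards its end. A difference of 0.09 between them passed after adjustment over the 6 measures (permutation test, p = 0.00529, adjusted p = 0.0317), with 9 of 10 Nucleoid libraries above the Naked median. It was 0.0721 without Naked replicates 9, 10 and 11 (permutation test, adjusted p = 0.180), 0.0497 among deep libraries (exact permutation test, adjusted p = 0.289) and 0.0443 with depth as a covariate (permutation test, adjusted p = 0.173), and the call was also lost without replicate number 5, 6, 7, 9 or 10 (adjusted p up to 0.119).

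Unevenness of the gene, taken as the SD of log2(signal + 1) over its 29 windows, was 0.36 ± 0.10 in Nucleoid libraries (SD, n = 10), against 0.45 ± 0.14 in Naked libraries (SD, n = 11). This was a difference of -0.09 and did not pass (permutation test, p = 0.0957, adjusted p = 0.115), and it was -0.0382 without Naked replicates 9, 10 and 11 (permutation test, adjusted p = 0.604). The difference was -0.0259 among deep libraries (exact permutation test, adjusted p = 0.540). With depth as a covariate it was -0.00945 (permutation test, adjusted p = 0.814). Profiles over the 29 windows correlated with a median r of 0.854 for pairs of Nucleoid libraries and 0.806 for pairs of Naked ones, against 0.753 for pairs of 1 library from each. These medians are a description and were not tested, and the fractions also differ in depth.

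Depth moved with the rbcL signal within the Nucleoid fraction. Against log2 total counts, the gene signal of the 10 Nucleoid libraries had Pearson's r = -0.85 (permutation p = 0.00105, adjusted 0.0042 over 4 relations) and Spearman's rho = -0.76 (permutation p = 0.0154, adjusted 0.0309), so shallower libraries had more signal over rbcL. Leaving out the 2 libraries whose depth was farthest from the median gave r = -0.58. The upstream signal ran the other way, with r = 0.78 (permutation p = 0.00762, adjusted 0.0152) and rho = 0.62 (permutation p = 0.0609, adjusted 0.0812). Leaving out the same 2 gave r = 0.26, so the relation rests on those libraries.

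In Naked replicates 1 to 8 the gene signal had r = -0.43 (exact permutation p = 0.287, adjusted 0.287) and rho = -0.60 (exact permutation p = 0.132, adjusted 0.132). Leaving out the 2 farthest of these gave r = -0.77. The upstream signal of these 8 libraries had r = 0.75 (exact permutation p = 0.025, adjusted 0.0333) and rho = 0.88 (exact permutation p = 0.00724, adjusted 0.0290), with 0.82 in place of 0.75 once the 2 farthest were left out. Naked libraries were on the whole shallower. The median was 1158972 counts in Nucleoid libraries and 527624 in Naked libraries, and the plot of signal by depth shows both fractions.

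**Figure D4:**
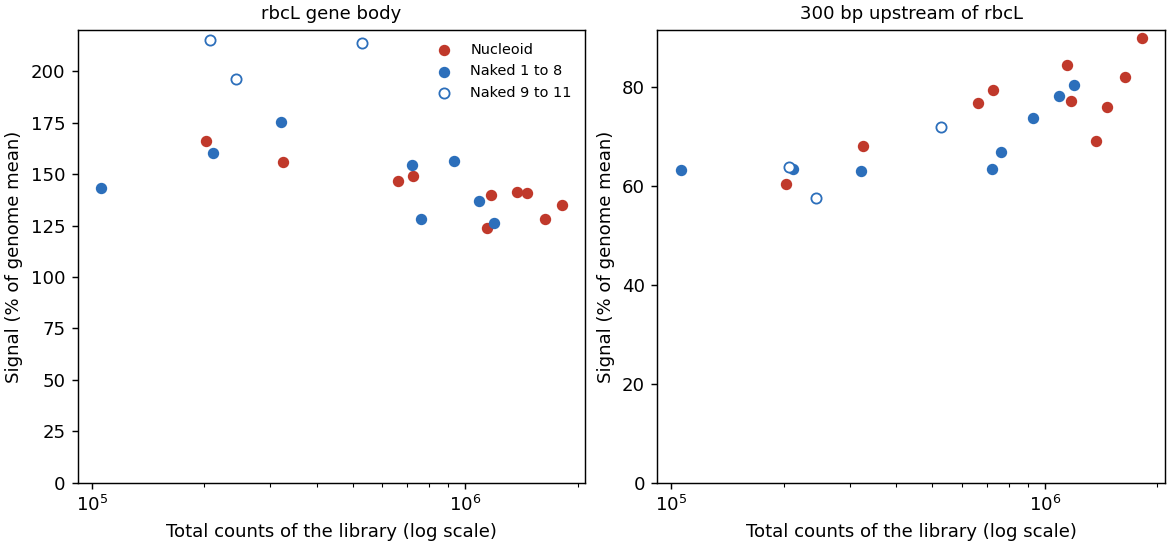
Signal across rbcL (left) and across the 300 bases before it (right), in percent of the genome mean, against the total counts of each library on a log axis, with Naked replicates 9, 10 and 11 as open points. In Nucleoid libraries the gene signal lies between 124 and 166 and tends to be higher in shallower libraries, and the open points (196 to 215) lie above all others.

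At single positions the counts were concentrated in few places, and largely the same ones in both fractions. The 144 highest of the 1440 gene positions held 43.4% of the gene's signal in Nucleoid libraries and 46.3% in Naked libraries, and the mean position profiles correlated with r = 0.949 across the gene and 0.942 upstream. Of the 10 highest positions 5 were shared. The highest position was the same in both, 55526 or base 569 of the gene. Its signal was 1539 ± 360 in Nucleoid libraries (SD, n = 10; lowest 1183, median 1474, highest 2362), against 1966 ± 728 in Naked libraries (SD, n = 11; lowest 1258, median 1669, highest 3581), resting on 31 to 145 counts and 9 to 115 counts per library. The ranges overlapped, with 3 of 10 Nucleoid libraries below the lowest Naked library, and Naked replicates 1 to 8 had 1691 ± 418 (SD, n = 8). At the other end, 74 positions of the gene had 0 counts in every library.

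Of the neighbours of rbcL, atpB across the spacer was the closest in level and in difference. Signal at atpB (ArthCp029) was 128 ± 6.63 in Nucleoid libraries (SD, n = 10), against 143 ± 21.8 in Naked libraries (SD, n = 11), with a log2 fold change of -0.15 that did not pass (SE 0.07; limma, adjusted p = 0.0997). Without Naked replicates 9, 10 and 11 it was -0.04 (adjusted p = 0.585). The log2 ratio of rbcL to atpB within a library was 0.15 ± 0.06 in Nucleoid libraries and 0.19 ± 0.11 in Naked libraries, a difference of -0.04 that did not pass (permutation test, p = 0.376, adjusted p = 0.376), and -0.0104 without those 3 libraries (permutation test, adjusted p = 0.795). It changed sign among deep libraries (0.0173) and with depth as a covariate (0.0119). The gene atpE (ArthCp028), for another ATP synthase subunit, is transcribed together with atpB and had 123 ± 4.31 in Nucleoid and 131 ± 13.7 in Naked libraries (limma, adjusted p = 0.164).

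On the other side of rbcL, accD (ArthCp031), for a subunit of the acetyl-CoA carboxylase of fatty acid synthesis, had 94.3 ± 3.02 in Nucleoid libraries (SD, n = 10), against 87.0 ± 6.20 in Naked libraries (SD, n = 11). It was called higher (log2 fold change 0.12, SE 0.04; limma, adjusted p = 0.0407), where 9.82% of genes were called higher, and the call held in 7 of 22 alternatives. Of the 78 protein-coding genes 11 were called higher, and their median fold change of 0.16 was above that of accD. The accD call was lost without any 1 of replicate numbers 2 and 5 to 10 (limma, adjusted p up to 0.106). It was also lost without Naked replicates 9, 10 and 11 (0.08, limma, adjusted p = 0.0860). The sign changed with window-median scaling (-0.04, limma, adjusted p = 0.585). The photosystem II gene psbA (ArthCp002), another strongly transcribed gene, had 120 ± 8.25 in Nucleoid libraries (SD, n = 10), against 144 ± 19.2 in Naked libraries (SD, n = 11). It passed where rbcL did not (-0.26, SE 0.07; limma, adjusted p = 0.00737), in 21 of 22 alternatives, the exception being deep libraries (-0.16, adjusted p = 0.103). Whether psbA and rbcL differ from each other in this was not tested.

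Among 20 photosynthesis genes read mainly by the plastid-encoded polymerase, rbcL included, 4 were called lower in nucleoids, where 24.1% of all genes were, and 1 was called higher. The lower genes were psbA, psbC (-0.25; limma, adjusted p = 0.0152) and psbD (-0.26, adjusted p = 0.00684), which encode subunits of the photosystem II core, and atpH (-0.29, adjusted p = 0.0114), which encodes the ring subunit of ATP synthase. None of the 4 passed among deep libraries (adjusted p from 0.0910 to 0.370), and psbC did not pass without Naked replicates 9, 10 and 11 (-0.17, adjusted p = 0.0618). The higher gene of the list was petB (0.15, adjusted p = 0.0136), for cytochrome b6, whose fold change was -0.01 with window-median scaling. The list's median fold change was -0.09, with 13 of 20 genes below 0, against a median of 0.10 over all 112 genes, 46 of which lay below 0. The 78 protein-coding genes had a median of 0.16, with 21 below 0. In this set lower calls numbered 7, against 4 in the list of 20 and 27 among all 112 genes. Higher calls numbered 11 in this set, 1 in the list and 11 among all genes. Whether the list and the protein-coding set differ in their share of lower calls was not tested. At -0.18, rbcL lay below the list's median.

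By Pearson's correlation of log2(signal + 1) over the 21 libraries after each fraction's mean was subtracted, genes that varied most like rbcL included rpl2 (r = 0.972), rrn4.5S (0.953), psbB (0.953) and psbE (0.952), out of 111 others. These libraries share their depth with every gene, and the values are a description. Without Naked replicates 9, 10 and 11 these 4 correlations were 0.926, 0.924, 0.899 and 0.928 over 18 libraries, and the gene most like rbcL was then psaC (0.933).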

How the data were processed

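The authors deposited 1 table of whole-number counts per plastid position and library, in TAIR10 coordinates per the file headers. The submitters' processing notes name Trim Galore 0.4.1, Bowtie2 2.2.8.9 and bedtools 2.25.0. Duplicate removal, the Tn5 shift and the treatment of reads shared by the inverted repeats are not given in the sources used here. A missing shift would move counts by a few positions. Duplicates kept after PCR would leave the counts less precise than they look. There were 0 unmatched columns.

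Signal is each window's mean count in percent of the library mean. Windows of 50 bp stepped along the genome from the first upstream position, and the last rbcL window had 40 bp. Gene limits other than those of rbcL came from a RefSeq table of TAIR10.1, and their coordinates are not printed. Of its 129 entries, 112 genes remained once 15 genes with 2 copies were merged and repeated or fragment entries left out. limma 3.58.1 in R 4.3.3 was fitted on log2(signal + 1) to all windows, genes and 300 bp stretches, with two-sided tests, Benjamini-Hochberg adjusted p-values and a threshold of 0.05, and was tested on simulated data. The table gives no strand, so stretches of 300 bp along the genome replaced the planned stretches before each gene. The 6 measures with 1 value per library, which were the gene signal, the upstream signal, their ratio, the first-to-last ratio, the rbcL to atpB ratio and unevenness, had two-sided permutation tests with 100000 resamples (exact among deep libraries), adjusted over the 6. For the replicate block they had exact sign-flip tests on the differences of same-numbered libraries.

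The alternatives were 3 other scalings (window median, large single copy region, single-copy protein-coding genes), a pseudocount of 10, log2 depth as a covariate, deep libraries, leaving out Naked replicates 9 to 11 or each replicate number, counting both identical libraries, a replicate block, limma voom, a minimum mean count of 10, and windows of 25, 100 and 200 bp or moved by 25 bp. The relations with depth were added after seeing the data. Named were rbcL, its neighbours, psbA, the 5 genes most like it (1 of which is not reported here), and windows that passed, were extreme or flanked the gene start; called genes of the photosynthesis list were also named, chosen after their values were seen. The gene, lists and alternatives were chosen with earlier results of these data known. No reference sequence was used.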

Additional observations from a re-analysis of the deposited data

Results flagged for a closer look

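Nucleoid replicate 11, the shallowest Nucleoid library with 202725 counts, stood far from the other 9 in 2 of the 17 values tested for this. Chance flags about 1 value in 20, or 0.85 of 17. In the window 100 to 51 bases before rbcL it was the lowest, at 82.3% of the genome mean, and in bases 1201 to 1250 of the gene it was the highest, at 189%. Both windows were among the 7 that passed. Without replicate number 11 of both fractions all 7 still passed.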

How the results depend on the processing

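Across 20 to 22 alternatives the rbcL gene signal never passed and stayed lower in nucleoids. The first-to-last ratio lost its call with depth as a covariate (0.0443), among deep libraries (0.0497) and without Naked replicates 9, 10 and 11 (0.0721), and without single replicate numbers it ran from 0.0676 to 0.103. The rbcL to atpB ratio reversed under the first 2 of these (0.0119, 0.0173). The labels do not say whether equal replicate numbers mark paired libraries, and the counts did not settle it. Of 9 same-numbered pairs 5 deviated together with r over 0.1 (0.0067 to 0.752), and 1 correlated best with its own number. The replicate block used these 9 pairs, without numbers 9 and 10, in an exact sign-flip test of the differences within pairs. With it the upstream signal (0.17, sign-flip test, adjusted p = 0.0410), the upstream-to-gene ratio (0.29, adjusted p = 0.0352) and unevenness (-0.0921, adjusted p = 0.0234) passed. Because pairing by number was not established, these results cannot be read as paired differences. In the fits with this block, 25 genes were called in place of 38. With 150 bases upstream, the signal (0.18) and the ratio (0.37) passed. Leaving out single numbers gave 0.13 to 0.20 for the upstream signal and 0.30 to 0.40 for the ratio. Called 50 bp windows numbered 915, against 361 with depth in the model, 203 among deep libraries, 472 without Naked replicates 9, 10 and 11, and 468 to 1013 without single numbers. Called genes numbered 20, 15, and 22 to 40 under depth, deep libraries and single numbers left out. Of the 7 calls among the 35 windows of the rbcL region there remained 4 with protein-gene scaling, where 27.5% of all windows were called. The region had 11 calls with voom, where 33.0% of all windows were called. It had 3 to 10 without single numbers, where 15.2% to 32.8% of all windows were called. Called 300 bp stretches numbered 0 to 188 over alternatives, against 146. The signs of accD (-0.0447) and petB (-0.0147) reversed with window-median scaling. A planned count model was not run. The cause of these changes was not tested. Depth limits the shallow windows most, with as few as 6 counts.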

Other observations

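The position profile of rbcL had a repeat at short distances in both fractions. The correlation of the mean signal with itself moved by 5 positions was 0.233 in Nucleoid and 0.217 in Naked libraries, and moved by 10 positions 0.157 and 0.158. Moved by 1 position it was -0.063 and -0.039, and moved by 9 positions -0.073 and -0.052. These are correlations across positions of 1 gene, which are not independent replicates, and are given as a description.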
